A study of Homo sapiens with 6 samples.

Results

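The anaphase-promoting complex (APC/C) and its inhibitor FBXO5 were examined in OE-19 cells, a line derived from adenocarcinoma of the esophagogastric junction (AEG). The 10 genes were taken by name: 9 APC/C subunits (*ANAPC1*, *ANAPC2*, *ANAPC4*, *ANAPC5*, *ANAPC7*, *ANAPC10*, *CDC16*, *CDC23* and *CDC27*) and *FBXO5*. No measured value entered this rule, but the genes were chosen with earlier results of these data known. The authors report cell cycle as the most enriched pathway among the genes lowered in these libraries. They show *ANAPC7* and *FBXO5* among these genes. The direction of the 10 genes is therefore not independent evidence. All 10 were found among the 60480 gene identifiers of the count table, and all 10 passed the filter on low counts that left 19778 genes for testing. IGF2BP3 is an m6A reader that binds and stabilizes mRNAs. Poly(A) RNA was sequenced from 3 libraries of control knockdown cells (titled shControl) and from 3 libraries of IGF2BP3 knockdown cells (titled shIGF2BP3, here IGF2BP3 KD). What the control vector holds and which hairpin was used in each IGF2BP3 KD library are not given in the sources used here. Nor do these sources say that the libraries came from separate cultures, so p-values measure the spread between libraries, which may be technical.

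The APC/C is a ubiquitin ligase that marks cyclins, securin and other proteins for the proteasome. It works with the coactivators CDC20 in mitosis and FZR1 (CDH1) from late mitosis through G1 phase, and so sets the order of chromosome separation, mitotic exit and entry into the next S phase. Its large subunits form a scaffold, a catalytic module and an arm of proteins built from tetratricopeptide repeats (TPR). FBXO5, also named EMI1, binds the complex and blocks it in S and G2 phase, so that cyclin A and geminin can accumulate.

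*IGF2BP3* itself had 6532 to 7416 counts in control libraries and 777 to 794 in IGF2BP3 KD libraries, a log2 fold change of -3.03 (standard error 0.06). Totals per library ranged from 53424071 to 69989087 counts. At this depth, each of the 10 genes was read between 339 and 8944 times in every library. The epithelial markers *EPCAM*, *CDH1*, *KRT8*, *KRT18*, *KRT19* and *ERBB2* were all high. Together they took 18010 to 19050 CPM, which are counts scaled to a common library total, in control and 19940 to 20300 CPM in IGF2BP3 KD libraries, and *ERBB2* gave most of this sum. Among 5 fibroblast markers, *COL1A2* had no count and *COL1A1* was the only one above 10 CPM. Their sum was 21.0 to 24.4 CPM in control and 30.04 to 34.7 CPM in IGF2BP3 KD libraries. Among 5 leukocyte markers, *CD3E* had no count and *CD68* gave nearly all of the sum, which was 32.7 to 37.5 CPM in control and 49.3 to 54.5 CPM in IGF2BP3 KD libraries. The 4 endothelial markers summed to at most 0.56 CPM in any library. The ranges did not overlap between the groups for *COL1A1*, *CD68*, *ERBB2*, *EPCAM* and *CDH1*, which were higher in IGF2BP3 KD libraries, and for *KRT8* and *KRT18*, which were lower. Their part in the results was not tested.

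Knockdown of IGF2BP3 came with lower expression of 5 of the 10 genes: *ANAPC1*, *CDC23*, *ANAPC7*, *FBXO5* and *ANAPC5*. None of the 10 was called higher. A gene is called lower or higher here when its p from edgeR's quasi-likelihood test, adjusted by Benjamini-Hochberg over all 19778 genes, is under 0.05. By this rule 10.6% of all genes tested were called lower and 9.87% higher. These shares are over all types of gene and include genes read far less than most of the 10. The change ran from -11.3% (*ANAPC5*) to -30.1% (*ANAPC1*). The median log2 fold change (IGF2BP3 KD relative to control) was -0.19 over the 10 genes and 0.01 over all genes tested. The 3 IGF2BP3 KD values lay entirely below the 3 control values in 6 of the 10 genes, the 5 called genes and *ANAPC4*, while 35.8% of all genes tested showed no overlap in either direction. DESeq2 also called *ANAPC4* and so called 6 of the 10 lower, against 16.6% of the genes for which it gave an adjusted p. In the scaffold and in the TPR arm some subunits fell and others were not called. The catalytic module and substrate recognition were each represented by 1 gene, *ANAPC2* and *ANAPC10*, and neither was called. In bulk RNA, less RNA per cell and fewer cells in the phase that expresses a gene cannot be told apart.

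**Figure D1:**
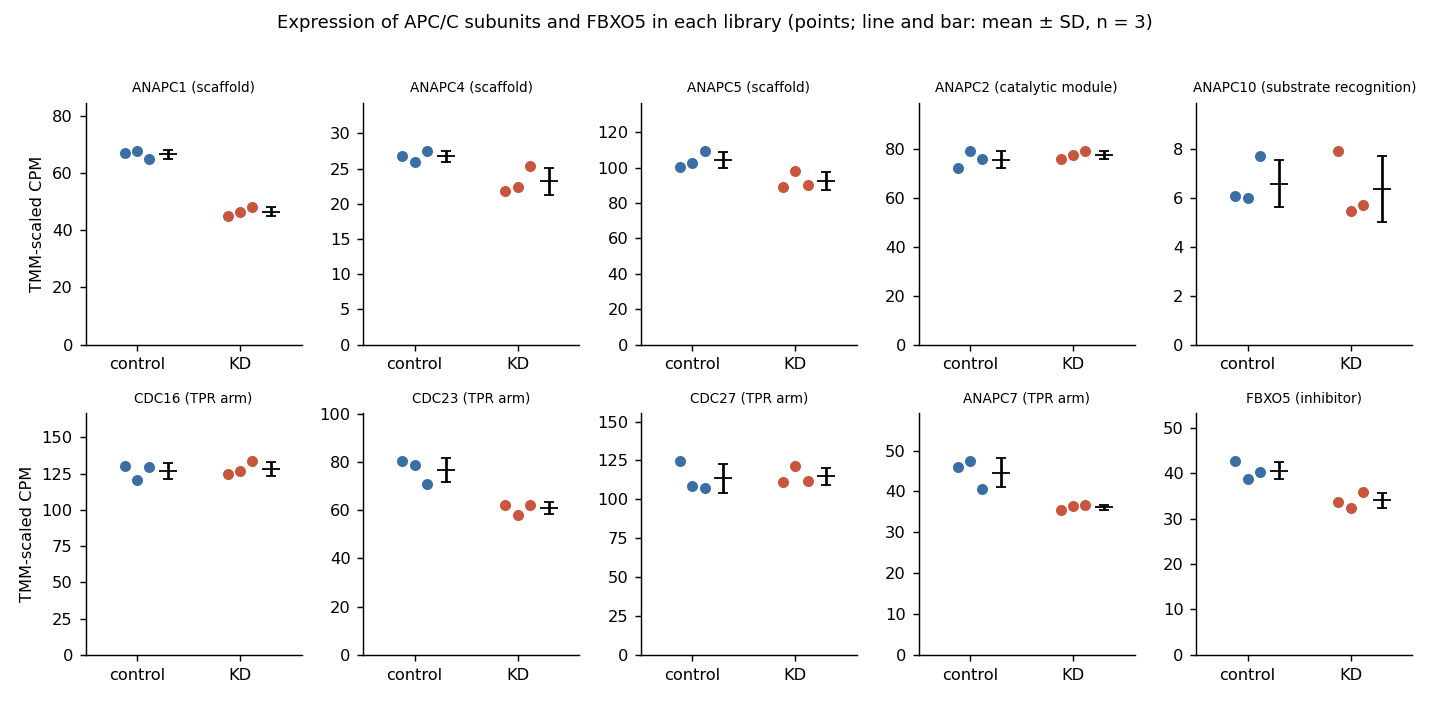
TMM-scaled CPM (y axis, from 0) of each of the 10 genes in the 3 control (blue) and 3 IGF2BP3 KD (red) libraries, with the mean and SD of each group beside the points. The groups are apart for *ANAPC1*, *ANAPC4*, *ANAPC5*, *CDC23*, *ANAPC7* and *FBXO5*, and overlap for *ANAPC2*, *ANAPC10*, *CDC16* and *CDC27*.

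The scaffold was represented by *ANAPC1*, *ANAPC4* and *ANAPC5*. *ANAPC1* (ENSG00000153107, minus strand of chromosome 2 of hg38, 111611639 to 111884690) encodes the largest subunit, the platform on which the other modules are assembled. Its expression, scaled with edgeR's TMM factors, was 67.0, 67.6 and 64.7 CPM in control replicates 1, 2 and 3, and 45.0, 46.2 and 48.0 CPM in IGF2BP3 KD replicates 1, 2 and 3. The lowest control library was thus well above the highest IGF2BP3 KD library. Its log2 fold change of -0.52 had a standard error of 0.05 (edgeR quasi-likelihood adjusted p = 2.3e-05) and was the largest fall of the 10 genes, also relative to its error. *ANAPC1* was called in each of the 6 fits that left out 1 library, with values from -0.54 to -0.50.

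*ANAPC1* has pseudogene copies elsewhere in the genome, and reads from near-identical copies can be placed on the wrong one. The 7 entries named *ANAPC1P1* to *ANAPC1P6* held 22.7% to 30.5% as many counts as *ANAPC1* in control libraries and 32.0% to 39.1% in IGF2BP3 KD libraries. Most of these lay in 1 entry named *ANAPC1P2* (ENSG00000285793), with 977, 1140 and 1014 counts in control and 893, 922 and 911 counts in IGF2BP3 KD libraries. That entry had a log2 fold change of -0.06 and was not called. When all copies were added to *ANAPC1*, its log2 fold change was -0.43, and it was still called. The size of its fall therefore depends on how reads were shared among the copies. The copies of the other subunits were nearly empty, with at most 4 counts for *ANAPC10* and at most 9 for *CDC27* in any library.

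*ANAPC1* was also the only one of the 10 genes whose 3′ UTR holds the 7-base word GATTACT. This word is shown because genes that carry it were lower more often in these libraries: 35.1% of the 1072 tested coding genes with it in the 3′ UTR were called lower, against 12.6% of the 12867 without it. The word was picked with this pattern known, so its presence is a description and no independent support. The site starts at base 631 of the 1651 bases of the 3′ UTR of transcript ENST00000341068.8 and lies at chr2:111768643-111768671 on the minus strand of hg38. It is followed by an A. It is printed with 11 bases on each side and the word in capitals:
ANAPC1 3′ UTR site: ggcatataggaGATTACTaaggttaagtg
In GENCODE v44, 7.69% of the 13939 tested coding genes with a 3′ UTR hold GATTACT there. The word ACACATC, with which 28.1% of genes were called higher, against 11.5% without it, occurs in no 3′ UTR of the 10 genes and in 9.53% of those of tested coding genes. The authors name UGGAC as the RNA sequence that IGF2BP3 prefers. It occurs in the 3′ UTRs of 6 of the 10 genes and in those of 61.4% of tested coding genes. The genes with this word in the 3′ UTR were *ANAPC1*, with 5 matches, and *ANAPC4*, *ANAPC5*, *CDC16*, *CDC27* and *ANAPC7*, with 1 or 2 each. In the part of the transcript before the 3′ UTR, *CDC23* held 4 matches, *ANAPC2* 6 and *FBXO5* 1, and *ANAPC10* held none. The share of all genes with UGGAC in that part was not counted. UGGAC was found in genes that fell and in genes that were not called, and its part in the falls was not tested.

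*ANAPC5* (ENSG00000089053, minus strand of chromosome 12, 121308245 to 121399896) encodes a scaffold subunit with TPR motifs. It had 100.4, 102.7 and 109.3 CPM in control libraries and 88.7, 98.1 and 90.4 CPM in IGF2BP3 KD libraries. The groups did not overlap, but IGF2BP3 KD replicate 2 came close to the lowest control. At -0.17 on the log2 scale (standard error 0.05) and an edgeR quasi-likelihood adjusted p of 0.028, it was the smallest of the called falls. This call did not hold without control replicate 2 (-0.19), control replicate 3 (-0.14), IGF2BP3 KD replicate 1 (-0.15) or IGF2BP3 KD replicate 3 (-0.16), where the adjusted p from edgeR was between 0.0589 and 0.119.

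*ANAPC4* (ENSG00000053900, plus strand of chromosome 4, 25377263 to 25418498) encodes a platform subunit that binds ANAPC5. It had 26.8, 25.9 and 27.5 CPM in control libraries and 21.8, 22.4 and 25.3 CPM in IGF2BP3 KD libraries. Its groups did not overlap, with IGF2BP3 KD replicate 3 just under the lowest control. At a log2 fold change of -0.20 (standard error 0.07), its adjusted p of 0.067 from edgeR missed the threshold. The 95% confidence interval of -0.36 to -0.05, which is not adjusted for the number of genes, lies below 0. Without IGF2BP3 KD replicate 3 the log2 fold change was -0.28 and the gene was called.

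The catalytic module and the substrate receptor gave no call. *ANAPC2* (ENSG00000176248, minus strand of chromosome 9, 137174784 to 137188560) encodes the cullin subunit, which holds the RING subunit ANAPC11 and the ubiquitin-loaded E2 enzyme. It had 72.2, 79.2 and 76.0 CPM in control libraries and 76.1, 77.7 and 79.4 CPM in IGF2BP3 KD libraries. The groups overlapped, and the log2 fold change was 0.04 with a 95% confidence interval of -0.06 to 0.14. This interval leaves room for changes between -4.40% and 9.95%. Its sign turned in 3 of the 15 alternatives, and the lowest value was -0.01.

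*ANAPC10* (ENSG00000164162, minus strand of chromosome 4, 144831908 to 145098541) encodes the subunit that, together with a coactivator, forms the receptor for the destruction box of substrates. It was the least read of the 10 genes, with 416, 417 and 452 counts in control and 428, 339 and 361 counts in IGF2BP3 KD libraries. Its values were 6.07, 5.99 and 7.72 CPM in control and 7.93, 5.46 and 5.73 CPM in IGF2BP3 KD libraries. The highest and the lowest value were both in the IGF2BP3 KD group. Its log2 fold change was -0.05 with a 95% confidence interval of -0.42 to 0.32, so falls as large as those of *CDC23* or *ANAPC7* were not detectable at this spread. Leaving out 1 library moved it between -0.24 and 0.08. *ANAPC10* shares 1020 exonic bases with a readthrough gene on its own strand (ENSG00000285713), which held 6 to 57 counts per library, and 132 with *ABCE1* on the opposite strand. *ABCE1* held 8689 to 14585 counts, far more than *ANAPC10*, and was called lower, with a log2 fold change of -0.33. How many of the *ANAPC10* counts came from these neighbours is not known.

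**Figure D2:**
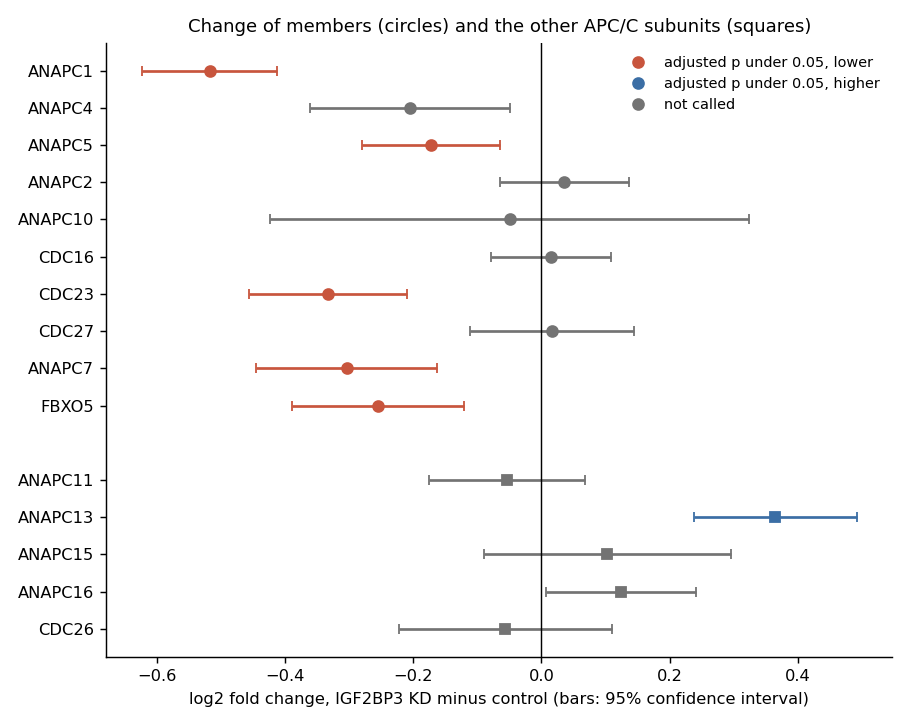
Log2 fold change (x axis, IGF2BP3 KD minus control) with its 95% confidence interval for the 10 genes (circles) and the 5 remaining APC/C subunits (squares), colored by the edgeR call. *ANAPC1* lies furthest to the left at -0.52, *ANAPC13* furthest to the right at 0.36, and *ANAPC10* has the widest interval.

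The TPR arm was split. *CDC23* and *ANAPC7* fell, while *CDC16* and *CDC27* overlapped between the groups. *CDC23* (ENSG00000094880, minus strand of chromosome 5, 138187650 to 138213343) encodes APC8, the subunit that receives the C-box of the coactivators. It had 80.3, 78.8 and 70.9 CPM in control libraries and 62.3, 58.1 and 62.4 CPM in IGF2BP3 KD libraries. Every control library was above every IGF2BP3 KD library, with control replicate 3 the lowest of its group. *CDC23* thus fell by 0.33 on the log2 scale (standard error 0.06), with an edgeR quasi-likelihood adjusted p of 0.0015, and was called in all 6 fits that left out 1 library. Its exons share 74 bases with *KIF20A* on the opposite strand, which held 3094 to 4439 counts and was itself called lower, with a log2 fold change of -0.21. Since the strand setting of the counting is not known, reads of these bases cannot be told apart.

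*ANAPC7* (ENSG00000196510, minus strand of chromosome 12, 110372900 to 110403730) encodes the outermost TPR subunit of the arm. It had 45.9, 47.4 and 40.6 CPM in control libraries and 35.4, 36.5 and 36.6 CPM in IGF2BP3 KD libraries. The IGF2BP3 KD values were close together, and control replicate 3 was nearest to them. *ANAPC7* fell by 0.30 on the log2 scale (standard error 0.06), with an edgeR quasi-likelihood adjusted p of 0.0060, and was called whichever library was left out. It shares 683 exonic bases with a long non-coding RNA on its strand (ENSG00000258210), which held 283 to 425 counts and was not called.

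*CDC16* (ENSG00000130177, plus strand of chromosome 13, 114234887 to 114272723) encodes APC6, a TPR subunit stacked between CDC23 and CDC27. It had 130.6, 120.4 and 129.8 CPM in control libraries and 124.7, 126.7 and 133.6 CPM in IGF2BP3 KD libraries. For *CDC16* the log2 fold change was 0.02, and the 95% confidence interval of -0.08 to 0.11 does not reach the falls of *CDC23* or *ANAPC7*. *CDC27* (ENSG00000004897, minus strand of chromosome 17, 47117703 to 47189422) encodes APC3, which docks the C-terminal tails of the coactivators and of ANAPC10. It had 124.5, 108.5 and 107.3 CPM in control libraries and 111.3, 121.2 and 111.7 CPM in IGF2BP3 KD libraries. One library of each group was high, control replicate 1 and IGF2BP3 KD replicate 2, and the log2 fold change was 0.02 with a 95% confidence interval of -0.11 to 0.14. Both signs turned in some of the fits that left out 1 library.

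*FBXO5* (ENSG00000112029, minus strand of chromosome 6, 152970519 to 152983579), the inhibitor, fell as well. It had 2917, 2699 and 2361 counts in control libraries and 1818, 2013 and 2257 counts in IGF2BP3 KD libraries. After scaling this was 42.6, 38.7 and 40.3 CPM in control and 33.7, 32.4 and 35.8 CPM in IGF2BP3 KD libraries. The groups did not overlap, and the means were 40.5 ± 1.93 and 34.0 ± 1.71 CPM (SD, n = 3). On the log2 scale *FBXO5* fell by 0.26 (standard error 0.06), with an edgeR quasi-likelihood adjusted p of 0.012. This is a change of -16.2% with a 95% confidence interval of -23.7% to -8.04%. Without IGF2BP3 KD replicate 2 the log2 fold change was -0.22 and the adjusted p from edgeR was 0.0504, just past the threshold. The other 5 fits that left out 1 library called it. A long non-coding RNA on the opposite strand (ENSG00000227627) shares 157 exonic bases with *FBXO5*, held 86 to 106 counts and was not called.

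Since subunits and inhibitor act on each other, *FBXO5* was also set against the 9 subunits within each library, as CPM per kilobase of exon. Its level was 10.3%, 9.68% and 10.1% of the summed level of the 9 subunits in control libraries and 9.07%, 8.56% and 9.31% in IGF2BP3 KD libraries. All IGF2BP3 KD values were lower. The difference was -0.16 on the log2 scale, with p = 0.1 from a two-sided exact permutation test, the smallest p that 3 against 3 libraries can give. With 1 library left out it lay between -0.18 and -0.12. With counts in place of counts per kilobase it was -0.13, and without the subunits that have pseudogene entries it was -0.15. The sum itself was 104.9 ± 2.18 CPM per kilobase in control and 98.1 ± 1.73 in IGF2BP3 KD libraries (SD, n = 3), also without overlap.

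The makeup of this sum shifted, as a share of the 9 subunits. The share of *ANAPC1* went from 4.53% ± 0.112 to 3.38% ± 0.0513, that of *CDC23* from 15.8% ± 0.858 to 13.5% ± 0.604 and that of *ANAPC7* from 7.08% ± 0.536 to 6.14% ± 0.0400 (SD, n = 3). The share of *CDC16* went from 30.6% ± 1.195 to 33.0% ± 0.681 and that of *ANAPC2* from 13.3% ± 0.847 to 14.5% ± 0.0543. The groups did not overlap for any of these 5 shares, each with p = 0.1 from the exact permutation test. They overlapped for *ANAPC4*, *ANAPC5*, *ANAPC10* and *CDC27*. Shares add up to a fixed total, so the shares of *CDC16* and *ANAPC2* were higher while their own CPM overlapped between the groups.

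**Figure D3:**
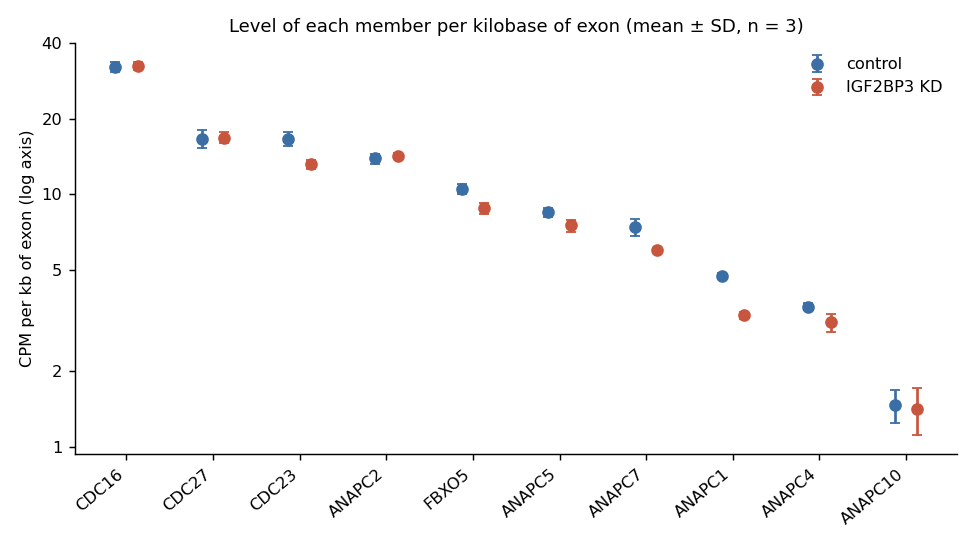
Level of each of the 10 genes as CPM per kilobase of exon (log axis, mean ± SD of 3 libraries), ordered by the control level. *CDC16* stands highest at about 32.1 in control and *ANAPC10* lowest at about 1.46, and *CDC23* falls below *ANAPC2* in IGF2BP3 KD libraries.

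On the scale of CPM per kilobase of exon, the order in control libraries was *CDC16* (32.1 ± 1.43), *CDC27* (16.6 ± 1.40), *CDC23* (16.6 ± 1.09), *ANAPC2* (13.9 ± 0.638), *FBXO5* (10.5 ± 0.502), *ANAPC5* (8.496 ± 0.378), *ANAPC7* (7.43 ± 0.595), *ANAPC1* (4.75 ± 0.110), *ANAPC4* (3.59 ± 0.107) and *ANAPC10* (1.46 ± 0.216; SD, n = 3). *CDC27* and *CDC23* overlapped, and no other neighbours in this order did. In IGF2BP3 KD libraries *CDC23* (13.2 ± 0.529) came after *ANAPC2* (14.2 ± 0.3004), and *ANAPC1* (3.32 ± 0.107) overlapped *ANAPC4* (3.11 ± 0.254). The order depends on the length used. Per kilobase of the canonical transcript in place of all annotated exons, *CDC16* remained first and *ANAPC10* last, but *ANAPC5* moved from rank 6 to rank 2 and *CDC27* from rank 2 to rank 6.

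The promoters of the 10 genes were searched for letters that cell cycle factors bind, because the genes fell to different degrees. The windows came from RefSeq (GRCh38.p14), cover 250 bases before to 50 bases after each start, and were taken at the start of the canonical transcript, which all 10 genes had. Both strands were searched. The E2F words TTTCCCGC, TTTGGCGC, TTTCGCGC and TTTGCCGC were in 2 of the 10 windows, *CDC16* and *CDC23*, and in 3.31% of all 35116 windows. Those 35116 windows hold several starts for some genes and were not limited to the genes tested, so they are not a like set. CCAAT, the word bound by NF-Y, was in 5 of the 10, *ANAPC5*, *CDC16*, *CDC23*, *CDC27* and *FBXO5*, and in 34.6% of all windows. At least 3 matches to CCAAT, a cut that was not planned, were in the windows of *CDC23* and *FBXO5* and in 3.26% of all windows. The words TTTGAA and TTCGAA belong to the cell cycle homology region (CHR), which the DREAM complex and MYB-MuvB bind. They were in the windows of *ANAPC1*, *ANAPC7* and *FBXO5* and in 16.4% of all windows. The match lies after the start in *ANAPC1*, and 236 and 40 bases before it in *ANAPC7* and *FBXO5*. *FBXO5*, whose gene is known as an E2F target, held none of the 4 E2F words in this window, which says only that these exact letters are not there.

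The matches of *CDC23* and *FBXO5*, the fallen genes with the most, are printed on the gene's own strand with the match in capitals. On that strand, ATTGG and TTCAAA are CCAAT and TTTGAA read on the opposite strand. Distances are from the first base of the match to the start of transcription. The E2F match of *CDC16*, a gene that was not called, is given for comparison with that of *CDC23*.
CDC23, E2F word, 187 bases before the start, chr5:138213492-138213521: tattttctaatTTTCCCGCctcagtagctc
CDC23, CCAAT, 98 bases before the start, chr5:138213406-138213432: taagacctatgATTGGtttttccggag
CDC23, CCAAT, 72 bases before the start, chr5:138213380-138213406: gcaagagccggCCAATgacaggcagat
CDC23, CCAAT, 17 bases before the start, chr5:138213325-138213351: tatcgccgatgATTGGctggagtggcc
CDC16, E2F word, 74 bases before the start, chr13:114234812-114234841: ctcgggtccgtTTTCCCGCgccagatggga
FBXO5, CCAAT, 141 bases before the start, chr6:152983167-152983193: ctcggcagcctCCAATtgggcgcggac
FBXO5, CCAAT, 98 bases before the start, chr6:152983124-152983150: actgccctcctATTGGtgcgcgcatgc
FBXO5, CCAAT, 68 bases before the start, chr6:152983094-152983120: cgacgcgtctcATTGGaccgcgcggat
FBXO5, CHR word, 40 bases before the start, chr6:152983065-152983092: taggcaccaaaTTCAAAgattttaaaag
The first FBXO5 match overlaps another, 138 bases before the start, that reads CCAAT on the opposite strand. *CDC16* and *CDC23* hold the same E2F word, 74 and 187 bases before the start, and only *CDC23* was called. Binding was not measured, and the part of this word in the fall of *CDC23* was not tested.

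The 5 remaining APC/C subunits, all small proteins, were read for comparison. None of the 5 was called lower and 1 was called higher, against 10.6% and 9.87% of all genes tested. *ANAPC13*, a small subunit that stabilizes the TPR arm, had 42.9, 37.6 and 39.6 CPM in control and 51.2, 51.7 and 51.8 CPM in IGF2BP3 KD libraries. All 3 IGF2BP3 KD libraries were above the controls, with an edgeR log2 fold change of 0.36 (standard error 0.06) and an adjusted p of 0.0010, and the gene was called without each library in turn. Without IGF2BP3 KD replicate 3 a second of the 5, *ANAPC16*, was also called higher. The log2 fold changes of *ANAPC16*, *ANAPC15*, *ANAPC11*, the RING subunit, and *CDC26*, a chaperone-like partner of CDC16, were 0.12, 0.10, -0.05 and -0.06, and none was called. The median over the 5 was 0.10. The difference between these 5 and the 9 larger subunits was not tested. With the lists that follow, which share *SKP2*, *PLK1*, *CDC20* and *UBE2C*, 59 further genes were tested, of which 22 were called lower and 2 higher. Of all genes tested, 10.6% were called lower and 9.87% higher.

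**Figure D4:**
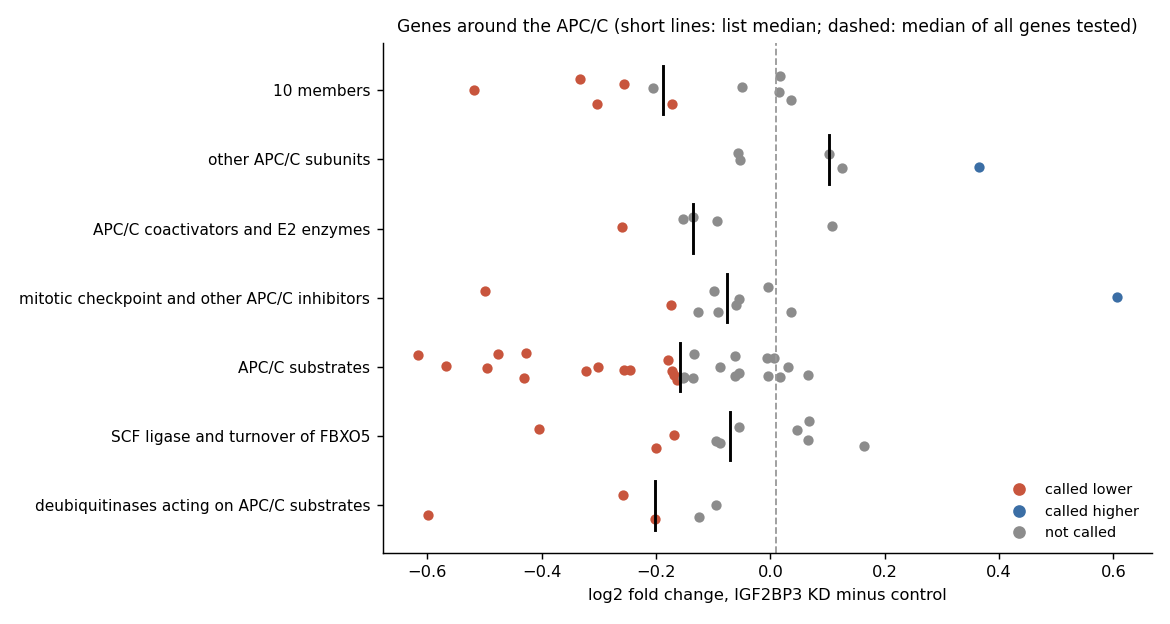
Log2 fold change (x axis) of each gene in the 10-gene group and in 6 lists of genes around the APC/C, with the median of each list (short black line) and of all genes tested (dashed line, 0.01). Red genes were called lower and blue genes higher, and blue occurs only for *ANAPC13* and *FBXO43*.

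Coactivators and E2 enzymes load the complex with substrate and ubiquitin. Of 5 tested, 1 was called lower, against 10.6% of all genes tested. This was *UBE2S*, the E2 that extends chains through lysine 11. It had 74.7, 80.2 and 77.5 CPM in control and 64.4, 63.7 and 66.0 CPM in IGF2BP3 KD libraries, a log2 fold change of -0.26 (standard error 0.04). *UBE2C*, the E2 that starts the chains, *CDC20* and *UBE2D1* had values of -0.15, -0.14 and -0.09, and the coactivator *FZR1* 0.11. *UBE2C* missed the threshold narrowly (edgeR adjusted p = 0.051). Across the alternatives, 1 to 3 genes of this list were called lower.

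The mitotic checkpoint holds the APC/C back until chromosomes are attached. Of 10 genes for its parts and for other inhibitors, 2 were lower and 1 was higher, against 10.6% and 9.87% of all genes tested. The list is too short to tell these counts from those shares. Only 1 was lower without control replicate 3, IGF2BP3 KD replicate 2 or IGF2BP3 KD replicate 3, and none was higher in 5 of the 6 fits that left out 1 library. *BUB1B*, which encodes the BUBR1 protein of the checkpoint complex that binds the APC/C, went from 154 ± 4.38 to 109 ± 2.06 CPM (SD, n = 3), a log2 fold change of -0.50 (standard error 0.04). *BUB1*, a kinase at the kinetochore, had a log2 fold change of -0.17 and was called in 3 of these 6 fits. *FBXO43*, the relative of FBXO5 that acts in eggs (EMI2), was higher at a low level, with 2.26, 2.58 and 2.54 CPM in control and 3.67, 3.53 and 4.06 CPM in IGF2BP3 KD libraries. Its log2 fold change was 0.61 (standard error 0.17), but it was called in only 1 of these 6 fits, the one without IGF2BP3 KD replicate 2. *MAD2L1*, which encodes the MAD2 protein of the same checkpoint complex, had a value of 0.04 and was not called.

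A list of 28 APC/C substrates was read because the mRNAs of many of them cycle with the complex. Of these, 14 were lower and none was higher, against 10.6% and 9.87% of all genes tested, and the median log2 fold change was -0.16. The largest falls were in *GMNN*, the licensing inhibitor geminin (-0.62, standard error 0.06), *CDC25A* (-0.57), *CDC6* (-0.50) and *SGO1*, the protector of centromeric cohesion (-0.48). *GMNN* had 37.0, 35.4 and 34.5 CPM in control and 24.1, 23.2 and 22.4 CPM in IGF2BP3 KD libraries. The best-known substrates were split. *CCNB1*, which encodes cyclin B1, fell, at -0.30 (standard error 0.06), and was called in all 6 fits that left out 1 library. Not called were *CCNA2* with a log2 fold change of 0.02, *PTTG1*, which encodes securin, with 0.03, and *CCNB2* with -0.09. Without 1 library, 11 to 15 of the list were called lower, and 14 to 18 under the other alternatives. Among them, *CDC25A* and *CDC6*, like *CUL1* of the SCF ligase, are among the genes that the authors show as lower here. The lists were chosen with earlier results of these data known, so the direction of these counts is no independent evidence.

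FBXO5 protein is itself removed at the start of mitosis by the SCF ligase with its β-TrCP subunits, after PLK1 has marked it. The list of 10 genes was for SCF ligases and this pathway. It also held *SKP2*, *CKS1B*, *FBXW7* and *CCNF*, which belong to SCF ligases other than that with β-TrCP. Of the 10, 3 were lower and none was higher, against 10.6% and 9.87% of all genes tested. Without control replicate 1, 2 were lower and 1 was higher. *FBXW11*, which encodes one of the β-TrCP proteins, had 60.6, 62.8 and 58.0 CPM in control and 45.2, 43.99 and 47.8 CPM in IGF2BP3 KD libraries (log2 fold change -0.40, standard error 0.05). *BTRC*, which encodes the other, had a value of 0.05 and was not called. *CUL1*, the cullin of the ligase, was at -0.20 and *SKP2*, the substrate receptor of another SCF ligase, at -0.17. *SKP2* was called in only 2 of the 6 fits that left out 1 library, those without control replicate 2 or IGF2BP3 KD replicate 1. *PLK1* had a value of 0.07 and was not called.

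Deubiquitinases can undo what the APC/C has done. Of 5 tested, 3 were lower, against 10.6% of all genes tested. These were *USP37*, which protects cyclin A from the complex, *OTUD7B*, which removes chains linked through lysine 11, and *USP22*. *USP37* had 24.9, 24.2 and 30.1 CPM in control and 15.7, 19.7 and 16.8 CPM in IGF2BP3 KD libraries, a log2 fold change of -0.60 (standard error 0.10). *OTUD7B* and *USP22* had values of -0.26 and -0.20. All 3 were called in each of the 6 fits that left out 1 library. *USP44* was not tested, with 5 counts in 1 library and none in the other 5. The 3′ UTR of *USP37* holds GATTACT, as do those of *SGO1* and *NEK2* among the called substrates and those of *CDC26*, *UBE2D1*, *TRIP13*, *SKP1* and *USP13*, none of which was called. Thus 8 of the 59 genes of the lists hold the word.

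**Figure D5:**
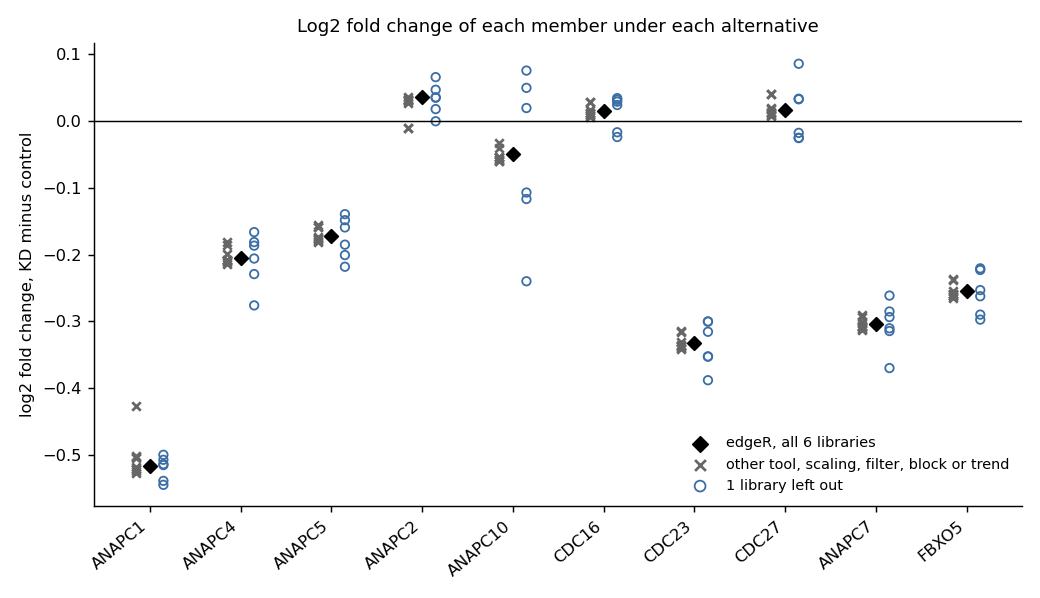
Log2 fold change of each of the 10 genes in the edgeR fit of all libraries (black), with another tool, scaling, filter, block or trend (grey crosses) and with 1 library left out (open circles). The values of *ANAPC1*, *CDC23*, *ANAPC7*, *FBXO5*, *ANAPC5* and *ANAPC4* stay below 0 throughout, and those of *ANAPC2*, *ANAPC10*, *CDC16* and *CDC27* lie on both sides of 0.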

How the data were processed

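RNA-seq covered 3 control and 3 IGF2BP3 KD libraries of OE-19 cells. The authors aligned paired reads of 150 bases to hg38 with hisat2 and counted them per gene with featureCounts. The deposited counts are not normalized. The submitters' processing notes also name fastp. Tool versions, annotation release and strand setting are not given in the sources used here, so genes that overlap others are uncertain.

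From the counts, 132 repeated entries of 44 identifiers were left out, and 19778 genes that passed filterByExpr (minimum count 10, minimum total 15) went into glmQLFit and glmQLFTest of edgeR 4.0.16 (R 4.3.3, TMM factors, Benjamini-Hochberg, threshold 0.05). Standard errors and intervals of 95% come from the same fit. Totals per library leave out the repeated entries. Libraries of a group differed by a chi-square of 9.86 to 17.6 per degree of freedom (genes averaging at least 50 counts), so none repeats another. The code was tested on simulated counts. Alternatives were DESeq2 1.42.0, RLE scaling, other filters, a replicate block, each library left out, trends on GC content or exon length removed (lowess span 0.3), and pseudogene copies added. Levels per kilobase used summed GENCODE v44 exons, and canonical transcripts as an alternative chosen after the data were seen.

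Named were the 10 genes, *IGF2BP3*, pseudogene copies, and from each list the called genes with the largest changes (up to 4 each way) and all genes of lists of 5. Others were named after their values were seen. The genes, lists and words were chosen with earlier results of these data known. The promoters come from RefSeq. Protein sequences were not used here.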

Additional observations from a re-analysis of the deposited data

How the results depend on the processing

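Over 15 alternatives for each of the 10 genes, 130 of 150 values kept their direction and their side of the threshold. *ANAPC1*, *CDC23* and *ANAPC7* were called lower in all of theirs. *FBXO5* was lost once, without IGF2BP3 KD replicate 2. *ANAPC5* was lost in 5: 4 fits that left out 1 library, and without a filter on low counts (adjusted p = 0.060 from edgeR). *ANAPC4*, not called at first, was called with DESeq2 (adjusted p = 0.047), with at least 10 counts in every library, and without IGF2BP3 KD replicate 3. The number of genes called lower among the 10 was between 4 and 6. The cause of these shifts was not tested. The sign turned for genes that were never called. *ANAPC2* was -0.0104 with the trend on GC content removed, and -0.0103 with this trend removed and the replicate block together. With the replicate block alone *ANAPC2* was at 0.036. With 1 library left out, *ANAPC2* ranged from -0.00033 to 0.066 and *ANAPC10* from -0.24 to 0.076. For *CDC16* the range was -0.024 to 0.034 and for *CDC27* -0.026 to 0.086. With the replicate number as a block, 2026 genes were lower and 1875 higher among all tested, against 2088 and 1953 without it, and no call among the 10 genes changed. Over all genes tested, deviations of same-numbered libraries correlated at -0.03 to 0.01, and those of other pairs at -0.02 to 0.02. No pairing by number was seen, but genes with few counts were included, so a weak one could be missed. Over all alternatives, 1641 to 2443 genes were lower and 1354 to 2096 higher. *ANAPC10*, the least read of the 10 genes with 339 to 452 counts, had the largest standard error among them, 0.17. How much of it is counting error was not tested.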
